A study of Mus musculus with 18 samples.

Results

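Lipid handling by macrophages was followed through 10 genes: Lpl, Cd36, Lipa, Fabp4, Fabp5, Abca1, Abcg1, Apoe, Pparg and Nr1h3. They were chosen by name for their roles in lipid uptake, lysosomal breakdown, transport inside the cell, efflux and nuclear receptor control, and they are 10 of the 23418 genes in the table. PolyA RNA was measured in leukemia cells of C57BL/6 mice transformed by 1 of 3 fusions, MLL-AF9, MLL-AF6 and MLL-AF1p, which join the amino-terminal part of the MLL protein to different partners. For 6 days, cells of each construct received MI-2-2 at 6 µM in 0.25% DMSO, or 0.25% DMSO alone. MI-2-2 is a small molecule that blocks the binding of menin to MLL. At the medium change on the third day the cells were brought back to their starting density and compound or DMSO was given again. There were 3 libraries in each of the 6 groups, 18 in all. No untransformed cells and no inactive compound were among the groups, and the labels do not say whether a construct is represented by 1 clone or by several.

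Macrophages take up lipoproteins and free fatty acids, split the lipids in lysosomes, carry fatty acids through the cytosol on binding proteins, and return cholesterol to lipoproteins outside the cell. Lipoprotein lipase frees fatty acids from triglycerides at the cell surface, and scavenger receptors bring in modified lipoproteins. PPAR gamma, sensing fatty acids, and the LXR receptors, sensing oxysterols, pair with RXR on DNA and turn on uptake and efflux genes. These genes are a familiar part of differentiated macrophages and of foam cells, and Fabp4 and Lpl are also high in adipocytes.

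Depth, in units of 1000000 counted reads, was 21.18 to 30.67 per library in MLL-AF9 and MLL-AF6 cells and 48.88 to 56.3 in MLL-AF1p cells, so comparisons with MLL-AF1p carry a difference of depth. Levels are the authors' RPKM, reads per kilobase of gene and per 1000000 counted reads. The labels give 3 replicates per group without naming separate cultures, and the p-values measure no more than the spread of these libraries, whose source may be technical. A gene rose or fell where limma on log2(RPKM + 0.5), fitted over the 11238 genes with an RPKM of at least 1 in at least 3 libraries, gave a Benjamini-Hochberg adjusted p under 0.05. Fold changes on that scale understate the change of low genes.

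The filter on low values kept 9 of the 10 genes, and Nr1h3 stayed under 1 RPKM in all 18 libraries. Cd36 and Fabp4 passed only through their MI-2-2 libraries, so that a difference in them was part of being tested. In MLL-AF9 cells 7 of the 9 rose and 1 fell, where 28.5% of all genes tested rose and 27.9% fell. In MLL-AF6 cells 8 rose and 1 fell, against 18% and 38.9% of all genes. In MLL-AF1p cells 7 rose and none fell, against 19.1% and 26.3%. The median log2 change of the 9 was 1.22, 2.16 and 0.85 in MLL-AF9, MLL-AF6 and MLL-AF1p, beside −0.001, −0.159 and −0.058 over all genes tested. Lpl, Lipa, Fabp4, Fabp5, Abca1 and Pparg rose in all 3 constructs, 6 of the 9, as did 8.64% of all genes. These are counts over genes picked with such results known and stand as a description.

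**Figure D1:**
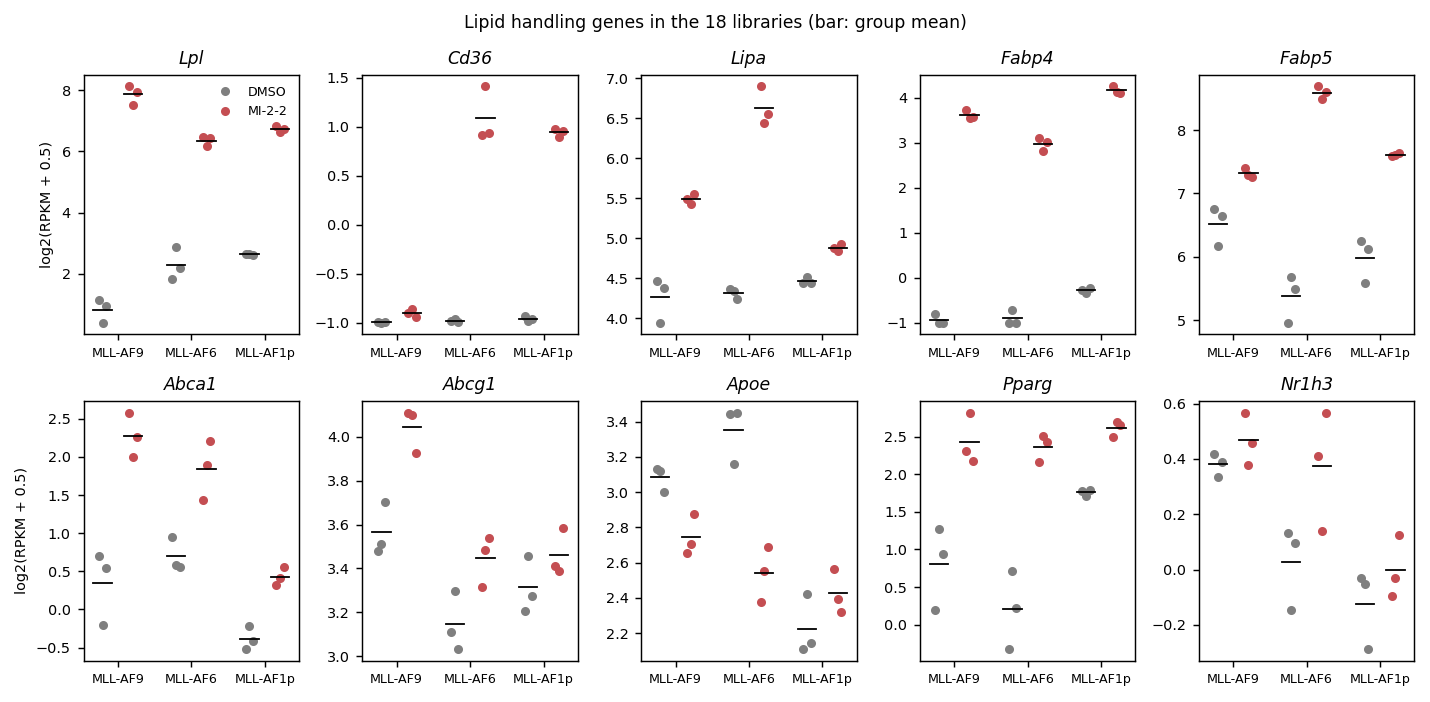
Level of each gene on the log2(RPKM + 0.5) scale (vertical axis, a separate range per gene) in the 3 constructs, with 1 point per library, DMSO in grey, MI-2-2 in red and a bar at the group mean. Lpl and Fabp4 lie far apart between treatments in every construct, Cd36 does so in MLL-AF6 and MLL-AF1p while staying under 0.06 RPKM in MLL-AF9, and Apoe is lower with MI-2-2 in MLL-AF9 and MLL-AF6.

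Lpl, the gene of lipoprotein lipase, had the largest change of these genes in MLL-AF9 cells on the log2(RPKM + 0.5) scale, while the ratio of reads was larger for Fabp4. Its level there was 1.71, 0.819 and 1.42 RPKM in the DMSO libraries and 279.7, 184 and 246 with MI-2-2. In MLL-AF6 cells it was 3.05, 6.81 and 4.01 with DMSO and 87.4, 72.2 and 85.6 with MI-2-2. In MLL-AF1p cells it was 5.73, 5.81 and 5.55 with DMSO and 113.7, 99.95 and 105.9 with MI-2-2. All 9 treated libraries lay far above all 9 controls, and the treated MLL-AF9 libraries lay above those of the other constructs. Group means rose 179.7-fold in MLL-AF9, from 1.32 ± 0.454 to 237 ± 48.4 RPKM (SD, n = 3), 17.7-fold in MLL-AF6 and 18.7-fold in MLL-AF1p. The log2 changes were 7.04 ± 0.22 (SE), 4.07 ± 0.22 and 4.11 ± 0.22 (limma, Benjamini-Hochberg adjusted p = 1.16e-12, 5.95e-10 and 1.35e-09). Because the samples are bulk RNA, a larger share of cells that make a transcript and more of it per cell cannot be told apart, here and for every gene below.

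The Lpl response was smaller in MLL-AF6 than in MLL-AF9, by a difference of −2.97 ± 0.32 log2 units, and in MLL-AF1p than in MLL-AF9, by −2.93 ± 0.32 (limma, adjusted p = 7.15e-06 and 9.06e-06). Between MLL-AF1p and MLL-AF6 the responses differed by 0.04 ± 0.32, which did not pass (adjusted p = 0.932). The MLL-AF9 controls also had the lowest level. Lpl under DMSO was 1.46 ± 0.22 log2 units higher in MLL-AF6 and 1.802 ± 0.22 higher in MLL-AF1p than in MLL-AF9 (limma, adjusted p = 5.35e-05 and 4.54e-06). The treated level was also highest in MLL-AF9, where the lowest of its 3 libraries, at 184 RPKM, exceeded the highest MLL-AF1p library at 113.7.

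Cd36, a scavenger receptor for oxidized lipoproteins that also lets long-chain fatty acids in, separated the constructs. It was 0.00256, 0 and 0.00196 RPKM in the DMSO libraries of MLL-AF9 and 0.0351, 0.05004 and 0.0215 with MI-2-2. MLL-AF6 cells had 0.00564, 0.0121 and 0.00204 RPKM with DMSO and 1.38, 2.16 and 1.41 with MI-2-2. MLL-AF1p cells had 0.0222, 0.00696 and 0.0128 with DMSO and 1.47, 1.35 and 1.43 with MI-2-2. The treated MLL-AF9 libraries were thus far below the treated libraries of both other constructs, although each lay above its own controls. The log2 change was 2.07 ± 0.11 in MLL-AF6 and 1.90 ± 0.11 in MLL-AF1p (limma, Benjamini-Hochberg adjusted p = 4.67e-10 and 2.91e-09). In MLL-AF9 it was 0.09 ± 0.11 and did not pass (adjusted p = 0.492).

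On this scale a pseudocount of 0.5 outweighs the MLL-AF9 values of Cd36, so the reads tell more. MLL-AF9 libraries held 2 Cd36 reads in all with DMSO and 50 with MI-2-2, a ratio per depth of 23.7 with a 95% exact interval of 6.23 to 201 for counting error only. In MLL-AF6 the reads rose from 10 to 2215, and those of MLL-AF1p from 39 to 3870. With voom in limma on these reads the MLL-AF9 change passed (log2 change 3.85, adjusted p = 0.00119), and so did it with reads per 1000000 (CPM) in place of RPKM (1.07, adjusted p = 0.000182). The response was larger by 1.97 ± 0.16 in MLL-AF6 and by 1.81 ± 0.16 in MLL-AF1p than in MLL-AF9 (limma, adjusted p = 3.63e-07 and 1.41e-06), and voom also gave larger responses there (by 4.11 and 2.88, adjusted p = 0.00795 and 0.0287). Cd36 reached 1 RPKM only in the treated MLL-AF6 and MLL-AF1p libraries, so a difference between constructs was also part of being tested. The authors divided Cd36 reads by a length of 17573 bases, while the longest annotated coding transcript has 3399 bases (GENCODE M21), so its RPKM is low beside that of other genes.

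The RefSeq table gives 1 start site for Cd36, and its upstream stretch is shown because the receptor is a known target of PPAR gamma. Printed are the 250 bases before the transcript start at chr5:17835897-17836146, minus strand, GRCm38.p6, a later build than the authors' mm9. Capitals mark TGACCT, the nuclear receptor element AGGTCA read on the other strand, at position −228, and a match to the C/EBP pattern TTNNGNAA at −187, counted in bases from the start.
Cd36: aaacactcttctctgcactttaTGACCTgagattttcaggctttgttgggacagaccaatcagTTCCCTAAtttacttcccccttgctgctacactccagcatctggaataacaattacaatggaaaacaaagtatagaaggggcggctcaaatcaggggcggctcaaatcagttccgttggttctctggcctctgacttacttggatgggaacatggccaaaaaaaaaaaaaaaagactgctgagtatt
The search covered 300 bases per promoter, to 50 past the start, on both strands. AGGTCA was in 16.3% and TTNNGNAA in 40.7% of all 32851 such windows. The direct repeat AGGTCANAGGTCA bound by PPAR with RXR was in none of the 11 promoters of the 6 genes that had an entry (Cd36, Lipa, Abca1, Apoe, Pparg and Nr1h3) and in 0.04% of all windows.

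Lipa, the lysosomal acid lipase that frees cholesterol and fatty acids from lipoproteins taken up, started at nearly the same level in each construct. DMSO libraries held 21.6, 14.9 and 20.4 RPKM for MLL-AF9, 20.2, 19.8 and 18.4 for MLL-AF6, and 21.3, 22.3 and 21.2 for MLL-AF1p. With MI-2-2 the libraries held 44.5, 42.5 and 46.2 for MLL-AF9, 118.7, 86.5 and 93.5 for MLL-AF6, and 28.9, 28.2 and 30.0 for MLL-AF1p. The treated groups overlapped neither with their controls nor with one another, and the order was MLL-AF6, MLL-AF9, MLL-AF1p. The log2 changes were 1.22 ± 0.12, 2.31 ± 0.12 and 0.42 ± 0.12 in MLL-AF9, MLL-AF6 and MLL-AF1p (limma, Benjamini-Hochberg adjusted p = 4.1e-07, 2.73e-10 and 0.00972). Each pair of constructs differed in this response, MLL-AF6 from MLL-AF9 by 1.09 ± 0.17, MLL-AF1p from MLL-AF9 by −0.81 ± 0.17 and MLL-AF1p from MLL-AF6 by −1.89 ± 0.17 (limma, adjusted p = 0.000211, 0.00201 and 2.48e-06). Under DMSO no pair of constructs passed for Lipa, with log2 differences of 0.05 to 0.20.

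The stretch before the Lipa start, at chr19:34527475-34527724 on the minus strand (GRCm38.p6), is shown for comparison with the other promoters, with 2 copies of the PU.1 core GAGGAA in capitals.
Lipa: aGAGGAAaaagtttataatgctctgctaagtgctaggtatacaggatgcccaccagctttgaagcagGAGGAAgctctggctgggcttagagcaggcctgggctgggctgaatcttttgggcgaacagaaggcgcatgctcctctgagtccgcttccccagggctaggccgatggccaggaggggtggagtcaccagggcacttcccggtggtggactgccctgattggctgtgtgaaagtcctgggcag
GAGGAA was in 28.3% of all windows. CACGTG, the E-box bound by the lysosomal regulators TFEB and TFE3, was not among these letters and was in 7.15% of all windows.

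Fabp4 and Fabp5 encode fatty acid binding proteins of macrophages and adipocytes, which carry fatty acids in the cytosol and to nuclear receptors. Fabp4 was close to absent from the controls. Its DMSO libraries held 1, 0 and 0 reads for MLL-AF9, 0, 2 and 0 for MLL-AF6, and 12, 9 and 11 for MLL-AF1p. The MI-2-2 libraries held 227, 207 and 156 reads for MLL-AF9, 161, 92 and 126 for MLL-AF6, and 633, 562 and 549 for MLL-AF1p, whose libraries had more counted reads. In RPKM the treated levels were 12.8, 11.3 and 11.4 for MLL-AF9, 8.14, 6.49 and 7.62 for MLL-AF6, and 18.6, 16.9 and 16.8 for MLL-AF1p. Every treated library therefore lay above every control, the highest of which was 0.349 RPKM in MLL-AF1p.

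Fabp4 rose by 4.56 ± 0.10 log2 units in MLL-AF9 cells, by 3.88 ± 0.10 in those with MLL-AF6 and by 4.45 ± 0.10 in those with MLL-AF1p (limma, Benjamini-Hochberg adjusted p = 2.96e-14, 9.44e-14 and 5.76e-14). As a ratio of reads per depth the rise was 560-fold in MLL-AF9 (exact 95% interval 100.1 to 22146) and 209-fold in MLL-AF6 (57.6 to 1735), wide because the controls held 1 and 2 reads. In MLL-AF1p, with 32 control reads, mean RPKM rose 54.2-fold, from 0.321 ± 0.0331 to 17.4 ± 0.987 (SD, n = 3). The difference of the response over the 3 constructs passed the F test (adjusted p = 0.00256), but with controls this low its sign between constructs turned with the pseudocount. MLL-AF1p less MLL-AF6 was 0.56 ± 0.14 with a pseudocount of 0.5, −0.49 with 0.1, and −1.65 with voom on reads (limma, adjusted p = 0.00797, 0.311 and 0.0385). Under DMSO Fabp4 was higher in MLL-AF1p than in MLL-AF9 by 0.65 ± 0.10 and than in MLL-AF6 by 0.62 ± 0.10 (limma, adjusted p = 4.25e-05 and 0.000142).

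Fabp5 was already high in the controls and was the highest of the 10 genes per length in every DMSO group. Its DMSO libraries held 107.4, 71.6 and 99.7 RPKM for MLL-AF9, 30.6, 50.5 and 44.3 for MLL-AF6, and 75.7, 47.3 and 69.3 for MLL-AF1p. With MI-2-2 they held 169, 157 and 153 for MLL-AF9, 413, 359 and 387 for MLL-AF6, and 192, 195 and 198 for MLL-AF1p. MLL-AF6 cells thus went from the lowest mean of the constructs to the highest. In MLL-AF9, MLL-AF6 and MLL-AF1p its log2 change was 0.80 ± 0.18, 3.22 ± 0.18 and 1.63 ± 0.18 (limma, Benjamini-Hochberg adjusted p = 0.00178, 1.01e-09 and 4.26e-06). The response in MLL-AF6 exceeded that in MLL-AF9 by 2.42 ± 0.26 and that in MLL-AF1p by 1.59 ± 0.26 (limma, adjusted p = 8.11e-06 and 0.000369). MLL-AF1p exceeded MLL-AF9 by 0.83 ± 0.26 (adjusted p = 0.0227), which no longer passed without the third DMSO library of MLL-AF9 (0.0504) or the second of MLL-AF1p (0.058). Reads of Fabp5 can be shared with 5 processed pseudogenes, which makes its level less certain. Gm6166 holds 19.6% and Gm14328 9.28% of the 50-base stretches of the coding transcript (GENCODE M21). Lpl shares such stretches with 299 other genes, each holding at most 1.39% of them, and their joint share was not measured. Abcg1 shares them with 5 other genes, at most 0.07% each.

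**Figure D2:**
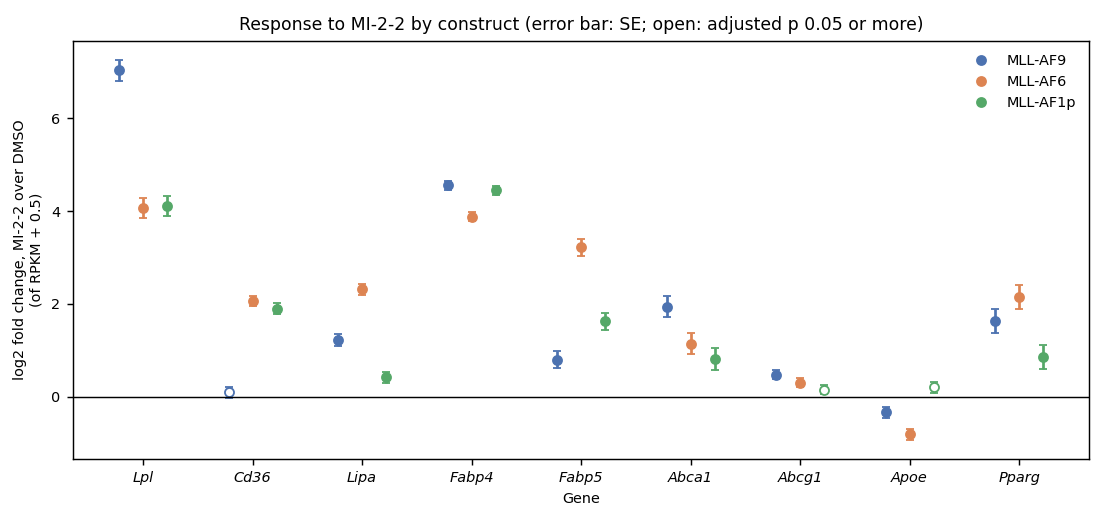
Log2 fold change of MI-2-2 over DMSO with its SE (vertical axis, of RPKM + 0.5) for the 9 genes tested (horizontal axis), colored by construct, with open points where the adjusted p did not pass. Lpl is highest in MLL-AF9, Cd36 is near 0 in MLL-AF9 alone, Lipa and Fabp5 are highest in MLL-AF6, and Apoe is below 0 in MLL-AF9 and MLL-AF6.

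Abca1 passes cholesterol and phospholipid to lipid-poor apolipoprotein A-I and is a classical LXR target. It was low, at 1.12, 0.366 and 0.951 RPKM in the DMSO libraries of MLL-AF9, 1.43, 1.00 and 0.975 for MLL-AF6, and 0.198, 0.358 and 0.248 for MLL-AF1p. With MI-2-2 it was 5.48, 3.49 and 4.29 for MLL-AF9, 2.20, 3.20 and 4.11 for MLL-AF6, and 0.743, 0.832 and 0.974 for MLL-AF1p. Treated and control libraries did not overlap within any construct, yet the treated MLL-AF1p libraries, up to 0.974 RPKM, did not exceed the lowest MLL-AF6 control at 0.975. Abca1 rose by 1.94 ± 0.23, 1.14 ± 0.23 and 0.81 ± 0.23 log2 units (limma, Benjamini-Hochberg adjusted p = 3.21e-06, 0.000544 and 0.00862). The F test of a difference between constructs passed (adjusted p = 0.0225), but not with a pseudocount of 0.1 (0.0949), with voom on reads (0.116), with CPM (0.103) or without the first MI-2-2 library of MLL-AF9 (0.0657). Under DMSO Abca1 was lower in MLL-AF1p than in MLL-AF9 (log2 difference −0.73 ± 0.23) and than in MLL-AF6 (−1.08 ± 0.23) with limma adjusted p = 0.0108 and 0.00106. The first of these did not pass without the first DMSO library of MLL-AF9 (log2 difference −0.55, adjusted p = 0.0561).

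The Abca1 promoter is shown because the receptor element through which LXR acts on this gene lies close to its start. The 250 bases before the start are at chr4:53159896-53160145 on the minus strand (GRCm38.p6). Capitals mark the stretch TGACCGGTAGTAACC at position −67 and an E-box CACGTG at −147.
Abca1: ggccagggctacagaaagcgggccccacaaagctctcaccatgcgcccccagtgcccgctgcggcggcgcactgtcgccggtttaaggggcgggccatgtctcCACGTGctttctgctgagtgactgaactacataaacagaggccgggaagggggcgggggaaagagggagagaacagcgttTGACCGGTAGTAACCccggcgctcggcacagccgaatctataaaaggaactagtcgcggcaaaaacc
The first stretch matches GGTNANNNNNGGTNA on the opposite strand, a loose form of 2 nuclear receptor elements spaced by 4 bases that was written with this known site in view. It was in 0.72% of all windows and in no other promoter of the 6 genes, while the strict form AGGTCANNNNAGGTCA was in 0.02% of all windows and in none of theirs.

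Abcg1, which passes cholesterol to mature HDL particles, varied little. Its DMSO libraries held 10.7, 10.9 and 12.5 RPKM for MLL-AF9, 8.13, 9.34 and 7.69 for MLL-AF6, and 8.73, 10.5 and 9.19 for MLL-AF1p. With MI-2-2 they held 16.8, 16.6 and 14.7 for MLL-AF9, 9.46, 10.7 and 11.1 for MLL-AF6, and 10.1, 9.96 and 11.5 for MLL-AF1p. Treated libraries lay above controls in MLL-AF9 and, narrowly, in MLL-AF6, and overlapped with them in MLL-AF1p. The log2 changes were 0.48 ± 0.10 in MLL-AF9 and 0.30 ± 0.10 in MLL-AF6, which passed, and 0.15 ± 0.10 in MLL-AF1p, which did not (limma, Benjamini-Hochberg adjusted p = 0.000589, 0.0155 and 0.227). The MLL-AF6 call was lost without the third DMSO library (adjusted p = 0.0747) or the third MI-2-2 library (0.0671) of that construct. No difference of the response between constructs passed for Abcg1 (F test adjusted p = 0.126).

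Apoe, the apolipoprotein that macrophages secrete with effluxed cholesterol and another LXR target, was the one gene that fell. Its DMSO libraries held 8.25, 8.20 and 7.51 RPKM for MLL-AF9, 10.4, 8.45 and 10.4 for MLL-AF6, and 3.82, 4.86 and 3.93 for MLL-AF1p. With MI-2-2 they held 5.81, 6.03 and 6.85 for MLL-AF9, 4.70, 5.37 and 5.94 for MLL-AF6, and 5.42, 4.75 and 4.49 for MLL-AF1p. Treated libraries lay below controls in MLL-AF9 and MLL-AF6 and overlapped with them in MLL-AF1p. Apoe fell by 0.81 ± 0.11 on the log2 scale in MLL-AF6 and by 0.34 ± 0.11 in MLL-AF9, and its change of 0.20 ± 0.11 in MLL-AF1p did not pass (limma, Benjamini-Hochberg adjusted p = 1.63e-05, 0.0165 and 0.152). The MLL-AF9 call did not pass with reads thinned to the smallest library (log2 change −0.25, adjusted p = 0.08) or without the first MI-2-2 library of that construct (−0.29, adjusted p = 0.065). The response in MLL-AF1p differed from that in MLL-AF6 by 1.01 ± 0.16 and from that in MLL-AF9 by 0.54 ± 0.16 (limma, adjusted p = 0.000232 and 0.0149). Under DMSO Apoe was lower in MLL-AF1p, with log2 differences of −0.86 ± 0.11 from MLL-AF9 and −1.13 ± 0.11 from MLL-AF6 (limma, adjusted p = 6.6e-06 and 1.62e-06). With MI-2-2 the 3 constructs lay between 4.49 and 6.85 RPKM, with neighboring groups overlapping.

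Pparg encodes the receptor itself. Its DMSO libraries held 0.643, 1.93 and 1.42 RPKM for MLL-AF9, 0.2996, 1.15 and 0.668 for MLL-AF6, and 2.94, 2.78 and 2.97 for MLL-AF1p. With MI-2-2 they held 4.43, 6.55 and 4.03 for MLL-AF9, 3.98, 5.19 and 4.88 for MLL-AF6, and 5.11, 5.96 and 5.81 for MLL-AF1p. All treated libraries lay above all controls, and the treated groups overlapped from 1 construct to the next while their controls did not begin at the same level. Its log2 change was 1.63 ± 0.26 in MLL-AF9 cells, 2.16 ± 0.26 with MLL-AF6 and 0.85 ± 0.26 with MLL-AF1p (limma, Benjamini-Hochberg adjusted p = 6.89e-05, 4.73e-06 and 0.0146). The response of MLL-AF1p differed from that of MLL-AF6 by −1.31 ± 0.37 (limma, adjusted p = 0.0137), while its control level was 1.56 ± 0.26 log2 units higher (limma, adjusted p = 0.000169). Pparg in MLL-AF1p controls also exceeded that of MLL-AF9 by 0.96 ± 0.26 (limma, adjusted p = 0.00435). The F test over the 3 constructs gave an adjusted p of 0.0222, which became 0.0533 without the first MI-2-2 library of MLL-AF1p.

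RefSeq lists 3 Pparg promoters, and the RPKM does not say which start was used. The second is shown for its AGGTCA element at position −9, with GAGGAA at −240. It lies at chr6:115362099-115362348 on the plus strand (GRCm38.p6), with both in capitals.
Pparg: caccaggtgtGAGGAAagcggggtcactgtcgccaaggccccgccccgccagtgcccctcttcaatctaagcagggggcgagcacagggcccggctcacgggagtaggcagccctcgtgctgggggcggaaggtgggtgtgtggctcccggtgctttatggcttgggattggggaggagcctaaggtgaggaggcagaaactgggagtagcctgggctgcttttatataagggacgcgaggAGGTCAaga
The first of the 3 also holds AGGTCA, at −28 from its start. In all, 3 of the 11 promoters, in 2 of the 6 genes, held it.

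Nr1h3, the gene of LXR alpha, was low in every group. DMSO libraries held 0.834, 0.759 and 0.811 RPKM for MLL-AF9, 0.595, 0.402 and 0.569 for MLL-AF6, and 0.480, 0.464 and 0.3196 for MLL-AF1p. MI-2-2 libraries held 0.979, 0.801 and 0.875 for MLL-AF9, 0.829, 0.603 and 0.981 for MLL-AF6, and 0.436, 0.478 and 0.5901 for MLL-AF1p. Treated libraries lay above controls in MLL-AF6, narrowly, and overlapped with them in the other constructs. Per library this was 43 to 113 reads, so the gene was detected throughout. Fitted without the filter, Nr1h3 changed by 0.35 in MLL-AF6, by 0.09 in MLL-AF9 and by 0.12 in MLL-AF1p, of which the first passed (limma, adjusted p = 0.0213, 0.593 and 0.472). With CPM it passed the filter and its changes were 0.51, 0.12 and 0.20 (limma, adjusted p = 0.0185, 0.572 and 0.357). The authors' length for Nr1h3 is 3777 bases against a median of 1770 for its annotated coding transcripts (GENCODE M21).

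Nr1h2, the gene of LXR beta, named for its kinship although outside the naming rule, stood at 70.5 ± 11, 58.8 ± 1.57 and 50.0 ± 3.22 RPKM in the MLL-AF9, MLL-AF6 and MLL-AF1p controls (SD, n = 3). Its log2 changes of −0.01, −0.11 and −0.04 did not pass (limma, Benjamini-Hochberg adjusted p = 0.964, 0.286 and 0.761). Rxra, the shared partner of LXR and PPAR, rose in each construct, with means of 4.56 ± 0.982 and 13.3 ± 0.554 RPKM for MLL-AF9 (DMSO, then MI-2-2), 1.17 ± 0.419 and 8.69 ± 0.0947 for MLL-AF6, and 1.64 ± 0.15 and 3.82 ± 0.0609 for MLL-AF1p.

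Across the effects of MI-2-2, 8 of the 9 genes differed between constructs by the F test, Abcg1 being the exception, where 52.8% of all genes did. For Cd36, which passed the filter only through treated MLL-AF6 and MLL-AF1p libraries, that difference was part of being tested. By estimate, the construct with the largest response was not the same for all genes. Lpl, Abca1 and Abcg1 had their largest log2 change in MLL-AF9, and Cd36, Lipa, Fabp5 and Pparg had theirs in MLL-AF6, where Apoe also fell furthest. Not all of these leads passed. MLL-AF6 less MLL-AF9 was 0.53 ± 0.37 for Pparg and −0.79 ± 0.32 for Abca1 (limma, adjusted p = 0.285 and 0.0711). For Cd36, MLL-AF1p less MLL-AF6 was −0.17 ± 0.16 (limma, adjusted p = 0.45). No pair passed for Abcg1. For Fabp4 the order turned with the pseudocount. The pairwise differences share groups with one another and are not independent.

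Among the controls, 3 of the 9 differed between MLL-AF6 and MLL-AF9, Lpl higher and Fabp5 and Abcg1 lower in MLL-AF6, where 53.6% of all genes differed. Between MLL-AF1p and MLL-AF9 7 differed, against 65.1% of all genes, with Lpl, Fabp4 and Pparg higher and Fabp5, Abca1, Abcg1 and Apoe lower in MLL-AF1p. Between MLL-AF1p and MLL-AF6 5 differed, against 52.5%, with Fabp4, Fabp5 and Pparg higher and Abca1 and Apoe lower in MLL-AF1p. The call for Fabp5 between MLL-AF1p and MLL-AF9 (log2 difference −0.54) was lost without the first or the third MLL-AF9 library or the second of MLL-AF1p (−0.34 to −0.48, limma adjusted p = 0.0641 to 0.116). That for Abcg1 (−0.25) was lost without the third MLL-AF9 library or the first or the third of MLL-AF1p (−0.18 to −0.23, limma adjusted p = 0.0851 to 0.141). Between MLL-AF1p and MLL-AF6 the Fabp5 call (0.61) was lost without the first library of MLL-AF6 (0.41, limma adjusted p = 0.0713) or of MLL-AF1p (0.48, adjusted p = 0.0601). With 9 genes these counts are no result about the genes as a set. Over the alternatives, in some of which Nr1h3 was tested too, 3 to 5 were called for MLL-AF6 against MLL-AF9. For MLL-AF1p, 5 to 9 were called against MLL-AF9 and 4 to 6 against MLL-AF6. The 3 comparisons share their DMSO libraries.

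Per length, the order of the genes within a group changed with treatment. Fabp5 and Lipa ranked first and second in the DMSO groups of all 3 constructs. With MI-2-2 Lpl ranked 1 in MLL-AF9, 2 in MLL-AF1p and 3 in MLL-AF6. The authors' length for Fabp5 is 2694 bases against 987 for its coding transcript, while that for Lpl is 4059 against 4115 (GENCODE M21). The place of Lpl above Fabp5 in MLL-AF9 therefore depends on the lengths used, as do the sums that follow. Summed over the 10 genes, the level was 110 to 152 RPKM in MLL-AF9 controls and 428 to 539.5 with MI-2-2, 74.7 to 97.6 and 551 to 649 in MLL-AF6, and 94.7 to 119 and 364 to 376 in MLL-AF1p.

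Other genes of the same pathways were taken from 7 lists, with members of the 10 left out, and described by their counts. The lists were chosen with results of these data known. Beside the list counts stand the shares of all genes tested, of which 28.5%, 18% and 19.1% rose and 27.9%, 38.9% and 26.3% fell in MLL-AF9, MLL-AF6 and MLL-AF1p, the order used for the lists too. Of the named genes, Msr1, Fabp3, Klf4, Ch25h, Itgax and Atp6v0d2, and Fpr2 and Arhgef37 below, reached 1 RPKM in no control library. Slc27a2 reached it in no treated one. As for Cd36 and Fabp4, a difference in these genes was part of being tested. Lysosomal lipid breakdown and cholesterol exit had 11, 13 and 7 rises among 18 genes, with 3, 1 and 2 falls and median log2 changes of 0.49, 0.47 and 0.12. Psap, the precursor of the saposins that help lysosomal enzymes reach their lipids, rose in each construct, with means of 37.5 ± 3.44 and 309 ± 20.2 RPKM for MLL-AF9 (DMSO, then MI-2-2; SD, n = 3), 83.1 ± 8.12 and 841 ± 72.9 for MLL-AF6, and 74.1 ± 2.71 and 359 ± 10.6 for MLL-AF1p. Galc, a galactolipid hydrolase, rose by 1.33, 1.02 and 0.42 log2 units. Scarb2, a lysosomal membrane protein, rose by 1.33, 1.81 and 0.64, and Tfeb, a regulator of lysosomal genes, by 0.94, 0.83 and 0.68. Npc1, which exports cholesterol from lysosomes and was named after its values were seen, rose by 1.10 in MLL-AF9 and by 0.85 in MLL-AF6 cells, and its change of 0.12 in MLL-AF1p did not pass (limma, Benjamini-Hochberg adjusted p = 7.61e-08, 1.55e-06 and 0.314).

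Lipoprotein and scavenger receptors showed 9, 6 and 6 rises among 13 genes in MLL-AF9, MLL-AF6 and MLL-AF1p, with 1, 2 and 1 falls and medians of 0.81, 0.26 and 0.18. Msr1, the class A scavenger receptor, rose in each construct, with means of 0.0338 ± 0.0392 and 0.927 ± 0.139 RPKM for MLL-AF9 (DMSO, then MI-2-2), 0.0572 ± 0.0293 and 23.0 ± 1.9 for MLL-AF6, and 0.0765 ± 0.017 and 10.3 ± 0.246 for MLL-AF1p. Among treated cells it was lowest in MLL-AF9, as Cd36 was. Cd68, a lysosomal glycoprotein that is also on the macrophage marker list, rose by 2.22, 4.14 and 2.50 log2 units. Colec12, a collectin-type scavenger receptor, rose by 2.19 in MLL-AF6 and by 1.85 in MLL-AF1p cells. Its rise of 0.93 in MLL-AF9 (limma, adjusted p = 0.0456) was lost with a pseudocount of 1, no filter, median centring, quantile normalization, voom or thinned reads (adjusted p = 0.0577 to 0.148). It was lost too without any 1 of 4 MLL-AF9 libraries, the second or the third DMSO or the first or the third MI-2-2 (0.111 to 0.142), and without 1 of 7 libraries of the other constructs (0.054 to 0.0553).

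The other partners and targets of the receptors moved in both directions. Of 11 LXR and RXR partners and targets, 3, 2 and 3 rose and 4, 6 and 3 fell in MLL-AF9, MLL-AF6 and MLL-AF1p, with medians of −0.31, −0.54 and −0.04. Mylip, an LXR target that degrades the LDL receptor, fell by 0.94, 0.72 and 0.65 log2 units. Arl4c, another LXR target, rose by 1.55, 1.64 and 0.48, the last (limma, adjusted p = 0.0284) lost without the first or the third DMSO or the first or the second MI-2-2 library of MLL-AF1p (0.0689 to 0.0903). Apoc2, the cofactor of lipoprotein lipase, had mean changes of −1.09, −1.75 and −1.20, of which only the second passed (limma, Benjamini-Hochberg adjusted p = 0.066, 0.00613 and 0.0537). Its replicates were uneven, at 238 ± 112 RPKM in MLL-AF6 controls and 72.8 ± 38.7 with MI-2-2 (SD, n = 3).

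Of 14 PPAR partners and targets, 3, 3 and 2 rose and 5, 6 and 3 fell, with medians of −0.15, −0.24 and −0.11. Angptl4, a PPAR target whose product inhibits lipoprotein lipase, fell by 1.52 in MLL-AF9 and fell by 1.14 in MLL-AF6 cells, and its change of −0.33 in MLL-AF1p did not pass (limma, adjusted p = 1.59e-07, 4.25e-06 and 0.0595). Fabp3, the heart-type fatty acid binding protein, rose by 1.12, 1.87 and 1.64 from under 1 RPKM. Ppargc1b, a coactivator, rose by 0.70 in MLL-AF9 and by 1.01 in MLL-AF6 cells and had a change of 0.17 in MLL-AF1p that did not pass (adjusted p = 0.000109, 3.19e-06 and 0.248). Klf4, a transcription factor also tied to monocytes, rose by 1.85, 3.37 and 2.87.

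For the handling of fatty acids freed by the lipase, the list on LPL folding, control and fatty acid entry gave 4, 3 and 2 rises and 3, 5 and 2 falls among 11 genes, with medians of 0.18, −0.21 and −0.09. Acsl1, which joins fatty acids to coenzyme A, rose by 1.09, 1.42 and 1.21 log2 units, to 77.7 ± 5.73, 98.5 ± 11 and 68.0 ± 0.102 RPKM. The fatty acid transporter gene Slc27a4 rose by 0.79, 0.79 and 1.12. Slc27a2 fell by 1.79 in MLL-AF9 and 1.83 in MLL-AF6, with a change of −0.57 in MLL-AF1p that did not pass (limma, adjusted p = 1.24e-05, 1.14e-05 and 0.0626). Slc27a1 rose by 1.01 in MLL-AF6 and by 0.45 in MLL-AF9, the latter an adjusted p of 0.0376 that did not pass after median centring (0.0845), without the filter, with quantile normalization or without the second or the third DMSO or the first or the third MI-2-2 library of MLL-AF9.

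Lipid droplet storage and release had 5, 8 and 9 rises and 2, 2 and 3 falls among 18 genes, with medians of 0.13, 0.10 and 0.48. Soat1, which esterifies cholesterol for storage, rose by 1.13, 1.14 and 0.61, and Nceh1, which hydrolyses those esters, by 2.00, 2.23 and 1.17. Soat2 did not pass in any construct (limma, adjusted p = 0.171, 0.273 and 0.177), and G0s2, an inhibitor of triglyceride lipase, rose in MLL-AF6 (1.47, adjusted p = 0.00792) and did not pass in MLL-AF9 or MLL-AF1p (0.783 and 0.055). The list of other lipid exporters, which also holds oxysterol-making enzymes and a peroxisomal transporter, had 9, 5 and 4 rises among 15 genes. It had 2, 5 and 3 falls, with medians of 0.32, 0.24 and 0.01. Ch25h, which makes the LXR ligand 25-hydroxycholesterol, rose by 3.29, 4.91 and 3.16, to 6.21 ± 1.37, 17.5 ± 1.55 and 4.22 ± 0.156 RPKM from under 0.2 RPKM in each control group. Cyp27a1, which makes another oxysterol, fell by 0.47, 0.55 and 1.29. The first, from 0.228 to 0.0249 RPKM, ran from −0.26 with a pseudocount of 1 (limma, adjusted p = 0.0921) to −3.65 with voom and did not pass without the third MLL-AF9 DMSO library (−0.37, adjusted p = 0.0503). Abcd2, a peroxisomal fatty acid transporter, fell by 0.90, 0.80 and 0.95. Abcg3 rose in MLL-AF9 (2.48, limma adjusted p = 7.11e-05), while the tests in MLL-AF6 and MLL-AF1p did not pass (0.314 and 0.389).

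**Figure D3:**
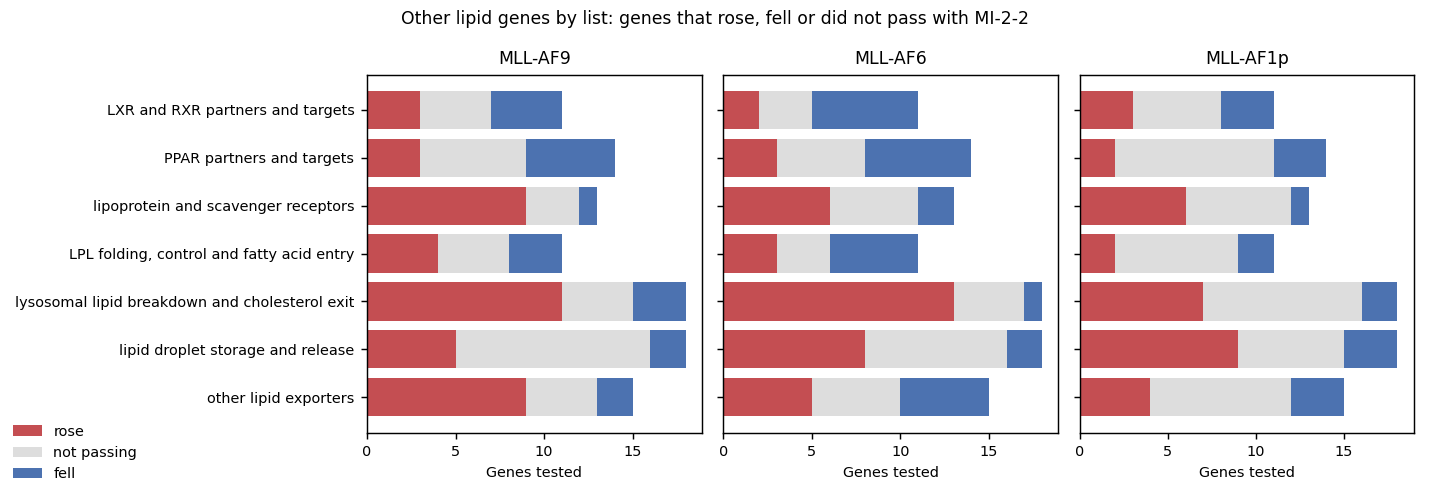
Number of genes tested (horizontal axis) in each of 7 lists of other lipid genes that rose (red), did not pass (grey) or fell (blue) with MI-2-2, in 3 panels by construct. The lysosomal list has 11, 13 and 7 rises of 18, while the LXR and PPAR lists hold as many falls as rises or more in every construct.

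Markers of other cells moved with these genes. The lists of these markers too were chosen with results of these data known. Of all genes tested, 28.5%, 18% and 19.1% rose and 27.9%, 38.9% and 26.3% fell in MLL-AF9, MLL-AF6 and MLL-AF1p. Of 8 macrophage markers tested, 7, 6 and 8 rose in that order of constructs. Their summed level was 558 to 1909 RPKM in MLL-AF9 controls and 3502 to 4614 with MI-2-2. It was 1910 to 3997 and 8525 to 12270 for MLL-AF6, and 621 to 732 and 3880 to 4312 for MLL-AF1p. All 7 neutrophil markers rose in each construct, with sums of 2161 to 4013 RPKM over the control groups and 18100 to 34890 over the treated ones. Of the alveolar macrophage list, a cell known for high Pparg, Fabp4 and Lpl, 5 of 5 tested rose in MLL-AF9 and 3 of 5 in both others, led by Chi3l3 and Atp6v0d2, while Krt79 was at 0 and Marco and Cidec stayed under 0.25 RPKM. Of the dendritic cell list 3 genes were tested, and Itgax and Cd74 rose while H2-Ab1 fell in every construct. Their part in the rises of the lipid genes was not tested.

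Adipocytes and vessel walls, which are also known sources of Lpl, Fabp4 or Cd36, were checked in the same way. Not every other source had a list. The adipocyte genes Adipoq, Plin1, Lep, Cidec, Retn and Pck1 reached at most 0.29 RPKM in any library, and the list's sum was 3.71 to 8.87 RPKM over all libraries, mostly Lipe. The endothelial genes Cdh5, Kdr, Tek, Emcn and Tie1 reached at most 0.193 RPKM and Gpihbp1 was at 0, with Egfl7 making up the sum of 0.585 to 10.3. Erythroid Hba-a1 and Hbb-b1 were at 0, and the fibroblast list summed to at most 0.885 RPKM. Of the megakaryocyte and platelet list 2 genes were tested. Vwf rose in all 3 constructs, while Pf4 fell by 1.42 in MLL-AF9, rose by 1.25 in MLL-AF6 and had a change of 0.20 in MLL-AF1p that did not pass (limma, adjusted p = 0.000524, 0.00149 and 0.588). The list's sum was 6.17 to 6.78 RPKM in MLL-AF9 controls and 5.70 to 7.36 with MI-2-2, 1.65 to 2.27 and 12.4 to 15.0 for MLL-AF6, and 1.91 to 3.005 and 4.51 to 5.21 for MLL-AF1p.

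**Figure D4:**
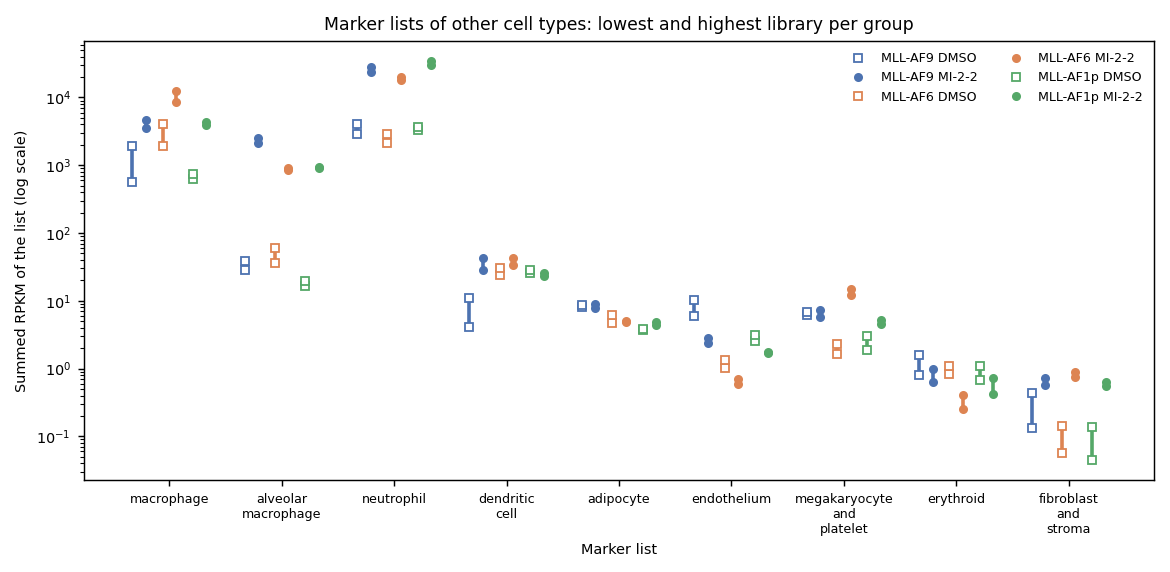
Summed RPKM of each marker list (vertical log axis) as the lowest and highest library of each group, with open squares for DMSO and filled circles for MI-2-2, colored by construct. Neutrophil sums run from 2161 to 34890 RPKM and, like macrophage sums, are higher with MI-2-2 in every construct, while adipocyte, endothelial, erythroid and fibroblast sums stay near or below 10 RPKM.

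Likeness of pattern was measured as Pearson's r of log2(RPKM + 0.5) over the 18 libraries, which share treatment, construct and depth, so r is a description. Among the 10 genes Lpl and Fabp4 were closest (r = 0.966), followed by Lipa and Fabp5 (0.858) and by Fabp4 and Pparg (0.857), while Apoe ran against Pparg (−0.762). Over all genes kept, the 2 nearest to Lpl were Fpr2 (0.98), a formyl peptide receptor, and Ifitm6 (0.98). Nearest to Fabp4 were the neutrophil granule gene Ltf (0.988) and the calprotectin gene S100a8 (0.983), and nearest to Pparg were Pglyrp1 (0.981) and Pycard (0.966). Nearest to Cd36 were Arhgef37 (0.972) and Msr1 (0.972). Like Cd36 and Fabp4, the genes Arhgef37, Msr1 and Fpr2 passed the filter only through MI-2-2 libraries. Lipa ran with Atp6v1g1 (0.989) and Atp6v1c1 (0.983), both subunits of the proton pump that acidifies lysosomes. Abca1 ran with Nab2 (0.961) and Nfe2l2 (0.955), Abcg1 with Jazf1 (0.946) and Twsg1 (0.922), Apoe with Hsf1 (0.933) and Arglu1 (0.932), and Fabp5 with Plau (0.970) and Ndufa8 (0.945).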

How the data were processed

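The deposited values are RPKM from 1 table of 23418 genes by 18 libraries, with gene lengths, per the file headers. Of tools, the submitters' processing notes list Bowtie2 2.0.0.7, CASAVA 1.8.2, edgeR and HTSeq, with mm9 as the build and no roles given. Per the labels' protocols, libraries were made with a polyA TruSeq kit that keeps no strand.

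Within each library, RPKM times length came in whole multiples of 1 step (100% of values, tolerance 0.05), which gave reads and depth. Genes reaching 1 RPKM in 3 or more libraries were fitted with limma 3.58.1 (R 4.3.3) on log2(RPKM + 0.5) as 6 group means (12 residual degrees of freedom). The prior variance was trended, and p-values were adjusted by Benjamini-Hochberg over 11238 genes. The code was tested on simulated data. Alternatives were pseudocounts of 0.1 and 1, no filter, median centring, quantile normalization, a replicate block, each library left out, each construct alone, voom on the reads, thinned reads and, added after seeing the data, CPM. Intervals of read ratios are exact at 95% and cover counting error only.

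The 10 genes and all lists were chosen with earlier results of these data known. Named besides the 10 are the 4 genes per list of largest mean absolute change and the 2 genes most like each of the 10. Of the genes this rule picks, 1 is not reported here. Promoters are from RefSeq (GRCm38.p6) and transcripts from GENCODE M21. Lpl, Abcg1, Fabp4 and Fabp5 had no promoter entry. Figures used matplotlib 3.10.9 (Python 3.11.15).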

Additional observations from a re-analysis of the deposited data

Results flagged for a closer look

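The response to MI-2-2 differed between the 3 constructs by limma's F test of the interaction terms for 8 of the 9 genes tested, each with 3 libraries per group. The Benjamini-Hochberg adjusted p was 4.23e-06 for Lpl, 3.4e-07 for Cd36, 2.69e-06 for Lipa, 0.00256 for Fabp4, 1.45e-05 for Fabp5, 0.0225 for Abca1, 0.000363 for Apoe and 0.0222 for Pparg. Over all genes 52.8% passed the same test, so a difference between constructs is the common case. Cd36 passed the filter only through treated MLL-AF6 and MLL-AF1p libraries, so its difference was part of being tested. The Abca1 call was lost with a pseudocount of 0.1, voom, CPM or 1 library left out (limma, adjusted p = 0.0657 to 0.116). That of Pparg was lost with 1 library left out (limma, adjusted p = 0.0533), and the order of the Fabp4 responses turned with the pseudocount. Over the alternatives 7 to 8 of the genes were called. The log2 changes in MLL-AF9, MLL-AF6 and MLL-AF1p were 7.04, 4.07 and 4.11 for Lpl, 0.09, 2.07 and 1.90 for Cd36, 1.22, 2.31 and 0.42 for Lipa, and 0.80, 3.22 and 1.63 for Fabp5.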

How the results depend on the processing

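Of 756 repeats of the MI-2-2 tests of the member genes, 750 kept their direction and side of the threshold, 4 lost the call, 2 gained it and none reversed. Many of these repeats could alter only the spread. Leaving out a library of another construct, fitting a construct alone or adding the replicate block keeps that construct's log2 change. No reversal was possible there, and this holds for many values of the wider count that follows. Over all contrasts and named genes, 4783 of 4986 values stayed, 63 lost a call, 75 gained one, 38 reversed and 27, all of Nr1h3, moved against a fit in which it was not tested. The fall in MLL-AF9, 1 gene, became 0 after thinning to equal depth and 0 to 1 when 1 library was left out. Genes called between MLL-AF6 and MLL-AF9 under DMSO, 3 as fitted, were 5 with CPM and 3 to 5 with 1 library left out. Related lipid genes falling with MLL-AF1p, 17 as fitted, were 28 when that construct was fitted alone. That fit kept the log2 changes and the genes tested. The count moved through the estimate of spread and the p-values it gives, and why that estimate differed was not tested. Of the reversed values, only the Fabp4 response of MLL-AF1p less MLL-AF6, 0.56 with adjusted p = 0.00797 (limma), had passed the threshold as fitted. Cd36 under DMSO gave −0.055, −0.057 and −0.002 with median centring and −0.052, −0.064 and −0.012 with quantile scaling, for MLL-AF6 less MLL-AF9, MLL-AF1p less MLL-AF9 and MLL-AF1p less MLL-AF6. Fabp4 under DMSO, MLL-AF6 less MLL-AF9, gave −0.037 and −0.039 with those scalings and −0.063 to 0.095 with 1 library left out, and Lipa gave −0.015 with median centring and −0.105 to 0.155. For the response of MLL-AF1p less that of MLL-AF9, Fabp4 gave 0.154 with pseudocount 1, 0.01 with median centring, 0.023 with quantile scaling and 0.073 with CPM. For MLL-AF1p less MLL-AF6, that response gave −0.491 with pseudocount 0.1 and −1.654 with voom. In that comparison Abca1 gave 0.002 with pseudocount 0.1, 0.273 with voom and 0.108 with CPM, and Lpl gave −0.004 with voom and −0.246 to 0.274. Slc27a1 with MLL-AF1p gave 0.021 and 0.027 with median and quantile scaling and −0.145 to 0.08. G0s2 in MLL-AF9 gave −0.443 to 0.595. Nr1h2 in MLL-AF9 gave 0.003 with quantile scaling and −0.132 to 0.093, and with MLL-AF1p 0.005 with median centring and −0.076 to 0.013. The main fit did not pair libraries by replicate number, since not every same-numbered pair passed a correlation of deviations of 0.1. That rule cannot show that pairing is absent, and every same-numbered pair was positive. Whether same-numbered libraries shared a source was not tested. The pairs numbered 1, 2 and 3 gave 0.281, 0.46 and 0.014 for MLL-AF9, 0.493, 0.557 and 0.001 for MLL-AF6, and 0.098, 0.21 and 0.026 for MLL-AF1p, and pairs of unlike number −0.565 to 0.342. Not every library correlated best with its own number (the first MLL-AF9 DMSO library gave 0.342 with the third MI-2-2 library). With the replicate block, 7, 8 and 7 of the genes rose, the same counts as without it, and calls over all genes in MLL-AF1p went from 2150 higher and 2953 lower to 2446 and 3488. The block brought 2 differences of response under the threshold (limma). These were Abca1 in MLL-AF6 less MLL-AF9 (adjusted p = 0.0367, from 0.0711) and Pparg in MLL-AF1p less MLL-AF9 (0.021, from 0.11). Differences under DMSO were not run with the block. Read depth limits Cd36 and Fabp4 in the controls, where few reads stand behind each value.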
